A study of Mus musculus with 12 samples.

Results

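The major histocompatibility complex (MHC) genes and the genes that load, partner or switch on their products were followed in brain and liver of aged mice under periodic heat stress. Members were the rows of the deposited count table whose symbol starts with H2-, the mouse MHC prefix, together with B2m, Tap1, Tap2, Tapbp, Cd74, Ciita and Nlrc5. This gave 51 of 25239 genes, of which 38 belong to class I, 12 to class II, and 1, H2-Ke6, is a steroid dehydrogenase gene of the same region that presents no antigen and was counted apart. The mice were male C57BL/6J wild-type animals of 24 months. The control (CO) groups, brain and liver, were not heated, and the heat stress (HS) groups stayed at 40 ± 0.5 °C and 60% ± 5% humidity for 3 hours a day over 15 days. Each of the 4 groups held 3 libraries of polyadenylated RNA, made from a weighed piece of frozen tissue whose region is not named for brain. Whether a brain and a liver library with the same number came from 1 mouse is not given in the labels.

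Library totals lay between 10466198 and 15609040 counts. A count of 0 allows up to 0.192 CPM (counts scaled to the library total) in the deepest library and 0.287 CPM in the shallowest, for counting error only. The labelled tissues held their own markers: 6 hepatocyte markers summed to between 64572 and 105059 CPM in liver and 2.35 to 14.3 CPM in brain, and 6 neuron markers to between 5584 and 7909 CPM in brain. Skeletal muscle markers summed to 298 CPM in liver CO 1 and 1795 CPM in liver HS 2, against at most 5.76 CPM in the other liver libraries, and the neuron markers reached 31.4 CPM in liver CO 1 against at most 18.5 CPM in the rest of liver. The liver comparison is also given without these 2 libraries.

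Class I molecules are a heavy chain bound to beta-2-microglobulin (B2m). They show peptides from inside the cell to CD8 T cells, and nearly all nucleated cells make them. The peptides are pumped into the endoplasmic reticulum by the Tap1 and Tap2 transporter and loaded with the help of tapasin (Tapbp). Class II molecules pair an alpha with a beta chain, are made mainly by dendritic cells, B cells and macrophages, and show peptides from the endocytic route to CD4 T cells. The invariant chain Cd74 guards the class II groove, and H2-DM exchanges its remnant for peptide. Both classes share a promoter module in which RFX, CREB and NF-Y factors recruit the coactivator NLRC5 for class I or CIITA for class II. In brain, class I is kept low in neurons, and class II is carried mostly by border macrophages and, when activated, microglia.

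Of the 51 members, 42 lie on chromosome 17 between positions 33915899 and 37483552 of mm10 in the GENCODE M21 annotation, and 46 were matched to that annotation by symbol. B2m lies on chromosome 2 (122147686-122153083), Nlrc5 on chromosome 8 (94434356-94527272) and Ciita on chromosome 16 (10480059-10528418). H2-K1 spans 33996017-34000347 and H2-D1 35262730-35267499 of chromosome 17, at either side of the class II genes H2-Ab1 (34257689-34269419), H2-Aa (34282744-34287823) and H2-Eb1 (34305867-34316674).

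The promoter module is known from many class I and class II genes, though not every member need carry it. The 120 bases right before the start are printed for 2 class I genes, for the liver-made class I gene H2-Q10 and for 2 class II genes, 5′ to 3′ on the gene's strand (RefSeq, GRCm38.p6). Capitals mark the short motifs found, each searched on both strands. CCAAT is bound by NF-Y and reads ATTGG on the other strand. TGACG is part of the site bound by CREB. AGCAAC is part of the X box bound by RFX.
B2m: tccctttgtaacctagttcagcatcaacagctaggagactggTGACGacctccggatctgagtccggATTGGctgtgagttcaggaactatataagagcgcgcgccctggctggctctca
H2-K1: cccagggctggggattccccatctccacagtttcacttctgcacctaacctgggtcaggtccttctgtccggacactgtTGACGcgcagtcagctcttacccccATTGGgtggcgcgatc
H2-Q10: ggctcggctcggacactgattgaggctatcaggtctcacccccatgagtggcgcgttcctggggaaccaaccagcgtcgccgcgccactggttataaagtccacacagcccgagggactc
H2-Aa: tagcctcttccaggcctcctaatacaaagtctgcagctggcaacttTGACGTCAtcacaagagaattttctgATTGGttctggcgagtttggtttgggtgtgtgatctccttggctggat
H2-Eb1: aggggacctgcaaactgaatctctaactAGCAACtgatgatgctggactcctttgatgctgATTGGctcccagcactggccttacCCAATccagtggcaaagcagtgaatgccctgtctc
These windows are chr2:122147567-122147686, chr17:34000348-34000467, chr17:35469969-35470088, chr17:34287824-34287943 and chr17:34305747-34305866. In H2-Aa the TGACG of both strands overlap in TGACGTCA. A spacing of 20 bases separates TGACG from ATTGG in B2m and H2-K1, and 21 bases in H2-Aa, while 27 bases separate AGCAAC from ATTGG in H2-Eb1. The H2-Q10 window holds none of the letters.

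Promoter windows of 300 bases were listed for 35 members. CCAAT on either strand stood in 31 of them (88.6%), against 37.4% of all 32851 windows. TGACG stood in 13 of 26 class I windows and 1 of 8 class II windows (20.8% of all windows), and AGCAAC in 3 of 26 and 4 of 8 (14.8% of all). The core of the interferon response element stood in 3 of 26 and 0 of 8 (3.44% of all). The ordered pair of TGACG and ATTGG with 15 to 25 bases between them was found in 5 class I windows and in H2-Aa, against 0.25% of all windows, and AGCAAC and ATTGG with 22 to 32 bases between them in 4 class II windows, H2-Eb1, H2-Eb2, H2-Oa and H2-Ob, against 0.0913%. Those spacings were set after the windows had been read, and a match is a description of letters only.

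Of the 51 members, 13 had no count in any library, and 3 more had at most 3 counts in every library. The rows without counts were H2-Ea of class II and 12 class I rows, among them H2-Q7, H2-Q8, H2-Q9 and every H2-M10 gene. H2-Q8, H2-Q9 and H2-T9 of these were not matched to the annotation by symbol. A count of 0 in a row with close relatives does not show that the gene was not transcribed. The b haplotype of C57BL/6 mice is known to lack a working H2-Ea gene. The filter on low counts left 28 members in the liver test and 28 in the brain test, 24 of them in both, and 32 in the fit of all 12 libraries. Reads of near-identical heavy chains can be shared: of the 100-base windows in their annotated transcripts, 14% in H2-Q5, 12% in H2-Q7, 10.8% in H2-Q6, 8.05% in H2-Q1, 8.01% in H2-Q10, 8.86% in H2-T22, 7.06% in H2-T10, 5.37% in H2-T-ps, 5.09% in H2-Q2, 11.3% in H2-DMb1 and 10.3% in H2-DMb2 also occur in another gene. The share was 0.957% in H2-K1, 2.16% in H2-Q4, 3.15% in H2-T23, 3.59% in H2-D1 and none in B2m, H2-Aa, H2-Ab1, H2-Eb1 or Cd74. How such reads were counted is not stated, so values of H2-Q1, H2-Q2, H2-Q5, H2-Q6, H2-Q10, H2-T10, H2-T22, H2-T-ps, H2-DMb1 and H2-DMb2 are less certain. So are the counts of 0 in H2-Q7, H2-Q8 and H2-Q9. In H2-Ke6, 61.6% of the windows occur in an overlapping gene.

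The question of where these genes are transcribed without heat was answered by the control libraries. Liver held far more MHC messenger than brain. Of the 32 members in the fit of all libraries, 25 were higher and 3 were lower in control liver at an adjusted p-value under 0.05 (edgeR's quasi-likelihood test), against 36.1% of all 15824 genes higher and 44.2% lower. The median log2 difference was 2.99 over the tested class I members and 2.96 over the class II members, against -0.24 over all genes tested. In all 28 of the 32 were called, against 80.4% of all genes. Levels per transcript length (RPKM, the CPM divided by the transcript length in kilobases) were scaled within each tissue, whereas the test scales all 12 libraries together, so a level set beside that of the other tissue lacks this shared scale. H2-M3 shows the difference: its RPKM was lower in control liver, yet the test placed it higher by 0.76 ± 0.31 on the log2 scale (adjusted p = 0.038 by edgeR, 0.065 by DESeq2). B2m stood first in both tissues, at 1855 ± 123 RPKM in control liver and 127 ± 8.88 in control brain (SD, n = 3).

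**Figure D1:**
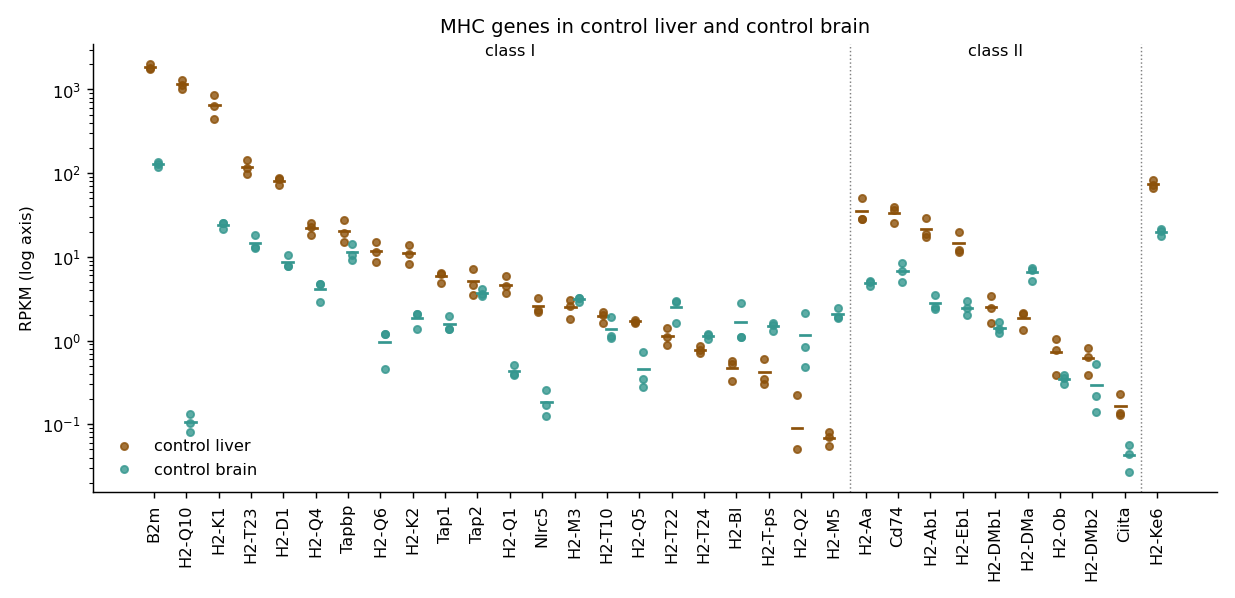
RPKM on a log axis, scaled within each tissue, for the 32 members in the fit of all libraries, in control liver (brown) and control brain (green). Points are libraries, dashes are means of 3, and a library at 0 is not drawn; most class I and class II members sat higher in liver, with H2-Q10 the widest gap, while H2-M5, H2-Q2, H2-DMa, H2-M3, H2-T22, H2-T24, H2-Bl and H2-T-ps had the higher mean in brain.

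Among class I heavy chains, H2-Q10, which encodes a secreted class I molecule made by hepatocytes, came first in liver at 1151 ± 142 RPKM and was followed by H2-K1 at 647 ± 215 RPKM. The liver ranges of B2m, H2-Q10, H2-K1 and H2-T23 did not overlap, whereas those of H2-D1 (81.2 ± 8.38 RPKM) and H2-Ke6 did. In brain H2-K1 followed B2m at 24.2 ± 2.16 RPKM, then came H2-Ke6, H2-T23 (14.6 ± 3.13), which encodes the nonclassical molecule Qa-1, Tapbp (11.3 ± 2.57) and H2-D1 (8.64 ± 1.53), each overlapping the next. The per-length level of H2-K1 was 6.16 to 10.3 times that of H2-D1 in the 6 liver libraries and 2.43 to 3.33 times in the 6 brain libraries. These ranges did not overlap.

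In the tissue comparison H2-K1 was higher in liver by 5.87 ± 0.32 on the log2 scale (SE, adjusted p = 1.2e-09), B2m by 4.98 ± 0.25, H2-D1 by 4.34 ± 0.19 and H2-T23 by 4.14 ± 0.23. The class I coactivator Nlrc5 was higher by 4.88 ± 0.30, more than the transporter genes Tap1 (2.99 ± 0.27) and Tap2 (1.60 ± 0.28) and tapasin (2.00 ± 0.26). H2-Q10 had 89187 counts over the control liver libraries and 8 over the control brain libraries. The nonclassical genes did not all follow. H2-M5 had 3 counts in control liver and 93 in control brain, a liver to brain ratio of 0.0697 (exact 95% counting interval 0.0141 to 0.21). H2-Q2 had 4 and 53 counts, a ratio of 0.163 (0.0429 to 0.443), and its brain values spread from 0.617 to 2.71 CPM. H2-T22 did not differ beyond its error (log2 difference -0.03 ± 0.30, adjusted p = 0.93 by edgeR).

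Among class II genes, the peptide-presenting chains were higher in liver: H2-Ab1 by 4.03 ± 0.36, H2-Aa by 3.97 ± 0.44 and H2-Eb1 by 3.65 ± 0.30 on the log2 scale, with Cd74 at 3.43 ± 0.39 and the class II coactivator Ciita at 2.96 ± 0.46. The exchange chain H2-DMa went the other way, lower in liver by -0.74 ± 0.23 (adjusted p = 0.0087, edgeR), and its partner chain H2-DMb1 was higher by 1.89 ± 0.31. The call for H2-DMa was lost without brain CO 1 (adjusted p = 0.067) and that for H2-Q2 without brain CO 2, liver CO 1 or liver CO 2 (adjusted p = 0.14, 0.088 and 0.1). Per length, H2-DMa reached 0.0428 to 0.0725 of the H2-Aa level in liver and 0.645 to 3.11 times that level in brain, so that the proportion of exchange chain to presenting chain separated the tissues in every library. Microglia markers summed to between 301 and 412 CPM in brain and 26.2 to 32.1 CPM in liver. Kupffer cell and macrophage markers summed to between 124 and 313 CPM in liver and 73.2 to 129 CPM in brain. Most of that brain sum was Csf1r, a gene that microglia also express, at 58.2 to 110 CPM. Clec4f and Vsig4 of that list were at 0 in brain, and Marco, Cd5l and Timd4 had at most 3 counts in any brain library. The part of these markers in these proportions was not tested. In RNA of whole tissue, fewer cells of a type and less RNA per cell cannot be told apart.

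Whether heat stress changed class I in liver was asked next. No member passed the threshold: 0 of 28 had an adjusted p-value under 0.05 by edgeR, as was true of 0.0% of all 12296 genes tested, and DESeq2 also called 0 members, with 61 genes called over the whole table. Most members nevertheless stood a little higher under heat. The log2 fold change was above 0 for 26 of the 28 members, 16 of 18 in class I and 9 of 9 in class II, against 51.8% of all genes, and the median was 0.23 in class I and 0.33 in class II, against 0.01 over all genes tested. At an unadjusted p-value under 0.05, 2 members were higher (2.97% of all genes) and 0 lower (2.87% of all genes). In 4 members every HS library lay above every CO library (5.38% of all genes), and in 0 every HS library lay below (5.73% of all genes).

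**Figure D2:**
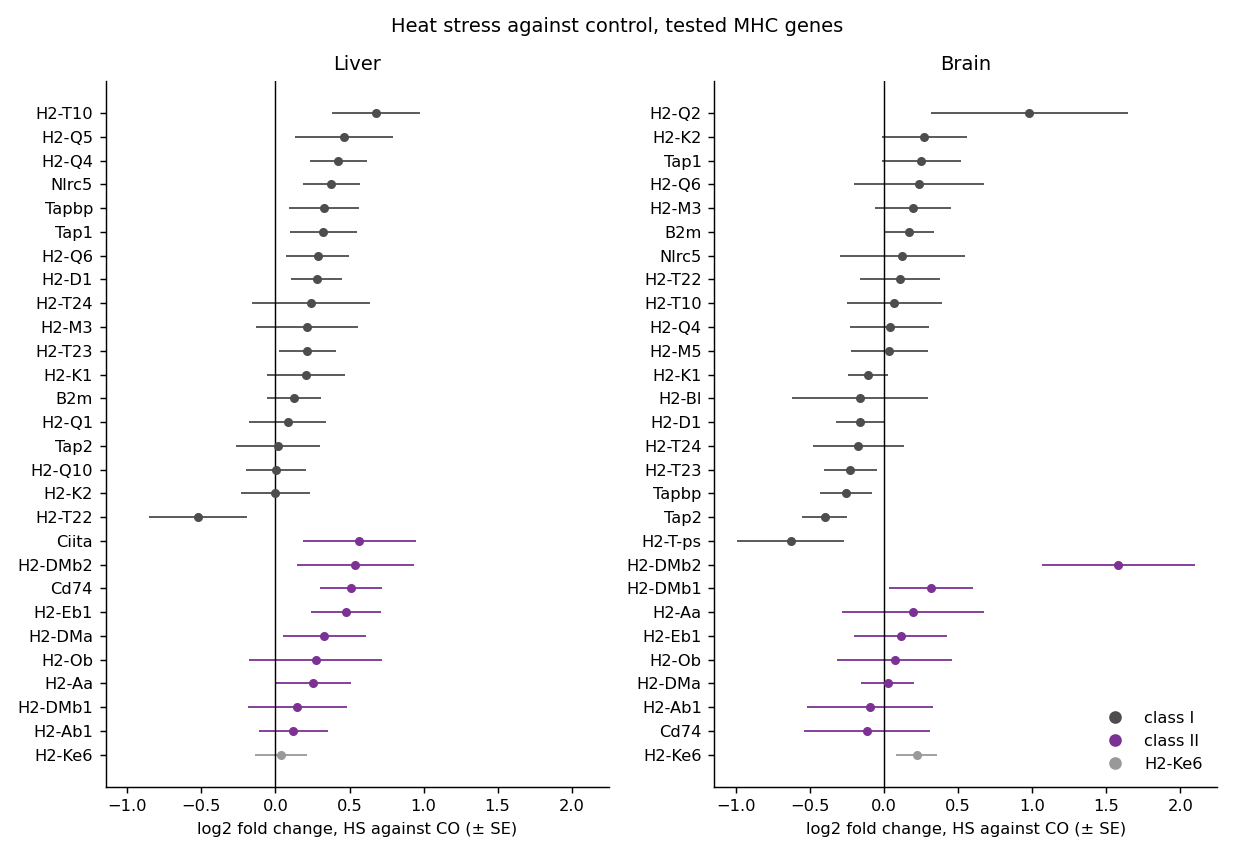
Log2 fold change of HS against CO with its standard error for the 28 members tested in liver (left) and the 28 tested in brain (right), class I in grey, class II in purple. In liver 26 of 28 points lie right of 0, while the brain points lie on both sides and only H2-DMb2 lies past 1.

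H2-K1, the leading classical heavy chain in both tissues, measured 1409.5, 715 and 1019 CPM in the liver CO libraries and 1032, 1355 and 1240.1 CPM in the HS libraries. The groups overlapped, since CO 1 was the highest of all, and the log2 fold change was 0.21 ± 0.26. H2-D1 measured 178, 151 and 183 CPM in CO and 200.1, 207 and 214 CPM in HS. Its groups did not overlap, but the difference of 0.28 ± 0.17 did not pass the test (adjusted p = 0.93). B2m, the shared light chain, measured 1718, 1528 and 1541 CPM in CO and 1787, 1698 and 1739 CPM in HS, which overlapped. H2-Q10 was level, at 2292 ± 282 CPM in CO and 2295 ± 242 CPM in HS.

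Of the peptide loading genes, Tapbp measured 80.1, 43.7 and 55.4 CPM in CO and 63.4, 82.5 and 79.3 CPM in HS liver. Tap1 measured 18.3, 14.5 and 19.0 CPM in CO and 22.2, 27.0 and 15.6 CPM in HS. Tap2 measured 25.0, 12.1 and 16.0 CPM in CO and 14.1, 23.1 and 16.7 CPM in HS. The groups of all 3 genes overlapped, and for H2-K1, Tap2 and Tapbp the 2 libraries with muscle transcripts were the highest of their groups. Without both libraries the log2 fold change was 0.37 for H2-K1, 0.12 for Tap2 and 0.51 for Tapbp, against 0.21, 0.02 and 0.33 with all libraries, and none passed the test (adjusted p = 0.61, 0.9 and 0.33 by edgeR). The coactivator Nlrc5 measured 17.4, 16.7 and 24.3 CPM in CO and 26.2, 26.0 and 23.6 CPM in HS, where only CO 3 reached the HS range (log2 fold change 0.38 ± 0.19, adjusted p = 0.89).

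**Figure D3:**
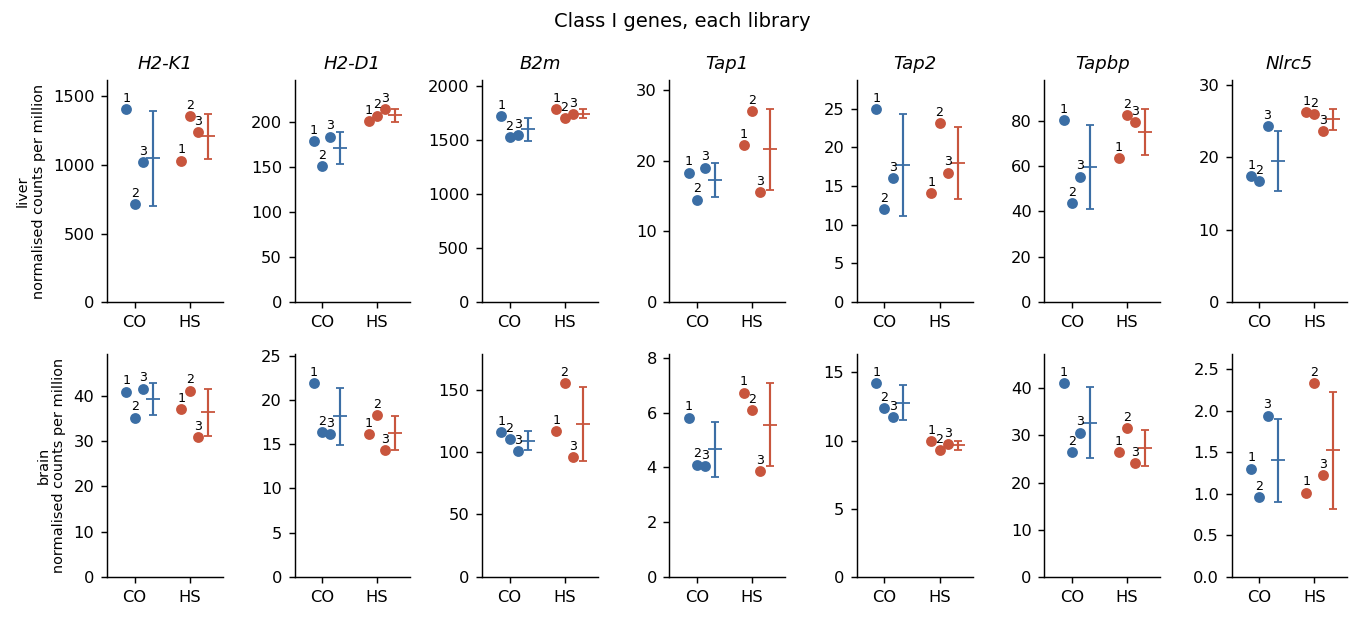
Normalised CPM of 7 class I genes in each liver (top) and brain (bottom) library, CO in blue and HS in red, with replicate numbers and the mean ± SD beside each group; every axis starts at 0. H2-D1 in liver and Tap2 in brain are the genes whose groups do not overlap.

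Among the other class I members, H2-T10 had the smallest unadjusted p-value in liver. It measured 2.97, 3.26 and 2.42 CPM in CO and 5.44, 5.37 and 3.08 CPM in HS, with a log2 fold change of 0.68 ± 0.30 and an adjusted p of 0.85. H2-Q4 measured 40.3, 32.4 and 45.1 CPM in CO and 48.5, 62.7 and 46.8 CPM in HS. The H2-Q4 groups did not overlap (log2 fold change 0.42 ± 0.19, adjusted p = 0.86). H2-T22, which shares windows with H2-T10, stood on the other side at 2.45, 1.55 and 1.96 CPM in CO and 1.41, 1.18 and 1.58 CPM in HS (log2 fold change -0.52 ± 0.33). The nonclassical H2-T23 measured 175 ± 33.5 CPM in CO and 203 ± 8.53 CPM in HS, and the 10 tested H2-Q, H2-T and H2-M heavy chains ranged from -0.52 to 0.68 in log2 fold change.

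The class II member with the smallest unadjusted p in liver was Cd74, the invariant chain, with 50.5, 35.8 and 55.2 CPM in CO and 63.5, 80.1 and 57.8 CPM in HS. All HS libraries lay above all CO libraries, and the log2 fold change of 0.51 ± 0.21 had an unadjusted p of 0.037 and an adjusted p of 0.85 by edgeR (0.31 to 1 over the alternatives). H2-Eb1 measured 20.1, 19.0 and 33.5 CPM in CO and 34.8, 37.2 and 28.5 CPM in HS. H2-Aa measured 31.9, 32.3 and 56.3 CPM in CO and 58.1, 47.0 and 38.3 CPM in HS. H2-Ab1 measured 22.8, 20.9 and 34.9 CPM in CO and 26.4, 34.2 and 24.7 CPM in HS. In all 3 presenting chains CO 3 was well above the other control livers and reached into the HS range, and their log2 fold changes were 0.48 ± 0.24, 0.25 ± 0.26 and 0.12 ± 0.23.

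The exchange chains H2-DMa and H2-DMb1 overlapped between the groups. H2-DMa measured 2.65, 4.16 and 4.29 CPM in CO and 4.84, 5.30 and 3.71 CPM in HS. H2-DMb1 measured 2.26, 3.42 and 4.85 CPM in CO and 4.91, 3.55 and 3.08 CPM in HS. Ciita, which drives class II, was sparse, at 12, 10 and 15 counts in CO and 23, 20 and 16 counts in HS, or 0.775, 0.815 and 1.40 CPM against 1.71, 1.39 and 1.26 CPM (log2 fold change 0.57 ± 0.38). H2-DMb2 was the other class II gene with every HS library above every CO library, at 0.912 ± 0.322 CPM against 1.31 ± 0.0923 CPM.

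**Figure D4:**
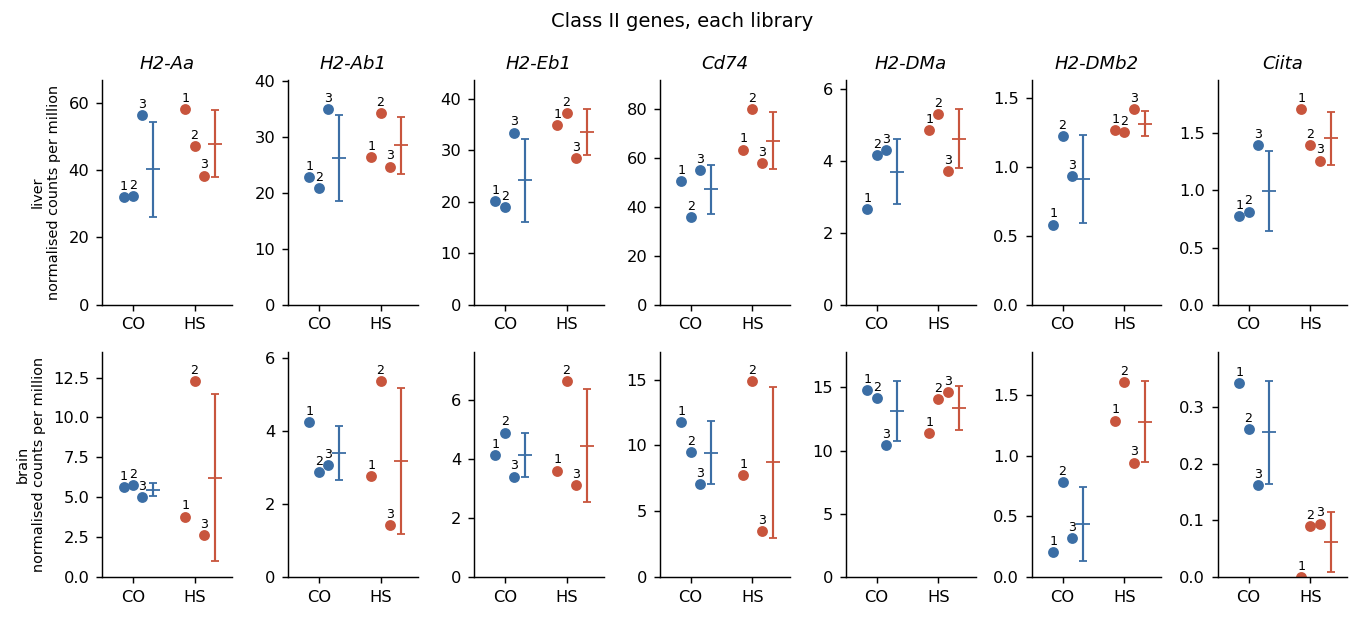
Normalised CPM of 7 class II genes in each library, laid out as for class I. In liver CO 3 stands with the HS libraries for H2-Aa, H2-Ab1, H2-Eb1 and Ciita, and in brain HS 2 stands above and HS 3 below the controls for H2-Aa, H2-Ab1, H2-Eb1 and Cd74.

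Summed over the class, heavy chains other than H2-Q10 reached 1901, 1099.7 and 1491 CPM in CO liver and 1568, 1907 and 1761 CPM in HS liver. The class II presenting chains summed to 74.8, 72.6 and 125 CPM in CO and 119.7, 119 and 92.0 CPM in HS. Both sums overlapped between groups. The summed markers of cells that carry class II also overlapped between the groups: the 8 Kupffer cell and macrophage markers summed to 124, 184 and 222 CPM in CO and 313, 191 and 169 CPM in HS, the 6 dendritic cell markers to between 4.97 and 8.57 CPM in CO and 6.20 to 9.38 CPM in HS, and the 6 B cell markers to between 6.20 and 11 CPM in CO and 9.06 to 14.0 CPM in HS. The 8 T and NK cell markers did not overlap, at 2.26, 5.87 and 6.15 CPM in CO and 20.996, 11.5 and 12.5 CPM in HS. By single genes, the log2 fold change was above 0 for 8 of 8 tested Kupffer cell and macrophage markers (median 0.43), 5 of 5 B cell markers (median 0.38), 2 of 3 dendritic cell markers (median 0.23) and 6 of 6 T and NK cell markers (median 1.61). At an unadjusted p under 0.05, 1, 0, 1 and 4 of them were higher by edgeR, among them the macrophage receptor gene Marco (log2 fold change 1.83 ± 0.60, adjusted p = 0.74) and the dendritic cell integrin gene Itgax (1.71 ± 0.39, adjusted p = 0.41), both with every HS library above every CO library. Ccl5 of the T and NK cell list was also apart (2.28 ± 0.40, adjusted p = 0.14 by edgeR, 0.0014 by DESeq2, and 0.001 to 0.95 over the alternatives). No marker of these 4 lists was at 0 in all liver libraries, and their part in the MHC values was not tested.

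The liver counts rested on few libraries. Without CO 3, 6 members were higher at an unadjusted p under 0.05, against 390 of all 12627 genes. Without CO 2, HS 1 or HS 2 there were 0, against 230 of 12655, 341 of 12641 and 337 of 12475 genes. The class II median was 0.56 without CO 3, 0.19 without CO 1, and 0.11 without both libraries that carry muscle transcripts, where the class I median was 0.20 and 23 of 28 tested members, all 23 among the 26 above 0 with all libraries, had a log2 fold change above 0.

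In brain the members lay on both sides of 0. Of the 28 members tested in brain, 0 had an adjusted p-value under 0.05 by edgeR, as was true of 0.0% of all 14806 genes, while DESeq2, with 618 genes called over the whole table, gave an adjusted p-value for only 4 members, H2-K1, B2m, Tapbp and H2-Ke6, and called 0 of these. The log2 fold change was above 0 for 18 members, 11 of 19 in class I and 6 of 8 in class II (49.7% of all genes), with a median of 0.04 and 0.09 against 0.00 over all genes tested. At an unadjusted p under 0.05, 1 member was higher and 1 lower, against 10.0% of all genes in each direction. The groups were fully apart in 1 member upward (12.9% of all genes) and 1 downward (12% of all genes).

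In class I, the member with groups apart was Tap2, one of the chains of the peptide transporter. It measured 14.2, 12.4 and 11.7 CPM in CO brain and 9.97, 9.32 and 9.73 CPM in HS brain. Every HS library lay below every CO library, with a log2 fold change of -0.40 ± 0.15, an unadjusted p of 0.025 and an adjusted p of 0.2 by edgeR (0.16 to 0.65 over the alternatives). Its partner chain Tap1 measured 5.83, 4.10 and 4.05 CPM in CO and 6.74, 6.09 and 3.87 CPM in HS, which overlapped. The per-length Tap1 to Tap2 ratio was 0.422 ± 0.0496 in CO and 0.671 ± 0.18 in HS, with 0.464 in HS 3 inside the CO range.

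The classical chains overlapped in brain. H2-K1 measured 40.9, 35.2 and 41.5 CPM in CO and 37.0, 41.1 and 30.9 CPM in HS. H2-D1 measured 21.9, 16.4 and 16.2 CPM in CO and 16.2, 18.3 and 14.4 CPM in HS. B2m measured 116, 110.5 and 101 CPM in CO and 117, 155 and 95.8 CPM in HS, so the HS libraries held both the highest and the lowest value. Tapbp measured 41.0, 26.5 and 30.6 CPM in CO and 26.4, 31.6 and 24.1 CPM in HS. Nlrc5 was sparse, at 11 to 26 counts in each library, or 1.30, 0.960 and 1.94 CPM in CO and 1.02, 2.33 and 1.23 CPM in HS. Of the remaining members, the pseudogene H2-T-ps measured 1.37, 1.75 and 1.62 CPM in CO and 1.38, 0.985 and 0.661 CPM in HS (log2 fold change -0.63 ± 0.36, adjusted p = 0.35), and H2-Ke6 measured 20.1, 23.04 and 24.2 CPM in CO and 26.9, 29.0 and 22.4 CPM in HS, which overlapped.

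The class II presenting chains and Cd74 spread more among the HS than among the CO brain libraries. H2-Aa measured 5.62, 5.76 and 5.02 CPM in CO and 3.79, 12.3 and 2.64 CPM in HS. Cd74 measured 11.8, 9.51 and 7.04 CPM in CO and 7.76, 14.9 and 3.49 CPM in HS. H2-Ab1 measured 4.25, 2.88 and 3.08 CPM in CO and 2.77, 5.37 and 1.42 CPM in HS. HS 2 was the highest and HS 3 the lowest brain library for each of these genes. H2-Eb1 had the same order at the ends, with 4.11, 4.89 and 3.40 CPM in CO and 3.60, 6.63 and 3.12 CPM in HS. The presenting chains together summed to 14.1, 13.6 and 11.7 CPM in CO and 10.2, 24.4 and 7.27 CPM in HS, an SD of 1.28 among the controls and 9.13 among the heat stress brains. Without HS 2 the H2-Aa log2 fold change went from 0.19 to -0.76 and the class II median from 0.09 to -0.16.

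The summed border macrophage markers were highest in HS 2, at 10.5, 10.2 and 6.23 CPM in CO and 7.02, 13.7 and 7.46 CPM in HS for 6 genes. Mrc1 gave 7.70 CPM of the sum in HS 2, and Pf4 (1.70 CPM) and Ms4a7 (1.52 CPM) were highest there too. Cd163, Lyve1 and Cbr2 were highest in CO 2, and 3 of the 4 tested markers had a log2 fold change below 0 (median -0.16). The T and NK cell sum was 2.33 CPM in HS 2 against at most 1.30 CPM in the other brain libraries. The microglia sum was also highest in HS 2, while the dendritic cell, B cell, and Kupffer cell and macrophage sums did not peak there. The dendritic cell sum was lowest in HS 2, at 12.6 CPM against 14.7 to 18.8 CPM. The B cell sum was 3.31 CPM in HS 2 and 4.15 CPM in HS 1, and the Kupffer cell and macrophage sum was 85.6 CPM in HS 2 and 129 CPM in CO 1. Few genes set these sums. Csf1r gave 65.7 CPM in HS 2 and 110 CPM in CO 1. Cd68 was also highest in CO 1, but Adgre1 in HS 2 (9.58 CPM). Flt3 (5.82 CPM), Zbtb46 (4.48 CPM) and Itgax were lowest in HS 2, but Cd209a was highest there (2.06 CPM). Pax5 gave 3.51 CPM in HS 1 and 0.627 CPM in HS 2, whereas Cd79a and Cd79b (0.985 CPM each) were highest in HS 2. The microglia sum was 307, 395 and 301 CPM in CO and 356, 412 and 377 CPM in HS, which overlapped. Of 7 microglia markers, 4 had a log2 fold change above 0 and 3 below (Tmem119 -0.04, Sall1 -0.14 and Cx3cr1 -0.16), and 2 were higher at an unadjusted p under 0.05 with every HS library above every CO library: P2ry12 (0.46 ± 0.17, adjusted p = 0.21 by edgeR, 0.11 by DESeq2, and 0.054 to 0.54 over the alternatives) and Gpr34 (0.87 ± 0.21, adjusted p = 0.17 by edgeR, 0.012 by DESeq2, and 0.012 to 0.54 over the alternatives). Csf1r, a receptor gene of macrophages and microglia, was lower in every HS library than in any CO library (-0.56 ± 0.16, adjusted p = 0.17 by edgeR, 0.037 by DESeq2, and 0.037 to 0.54 over the alternatives). The hepatocyte sum was 14.3 CPM in HS 2 against at most 6.74 CPM in the other brain libraries, so this library, which also held the highest B2m value, stood apart there too. The part of these markers in the class II values, H2-DMb2 included, and in the B2m values was not tested.

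H2-DMb2, a beta chain of the H2-DM exchange factor, had the smallest unadjusted p-value of the brain members. It had 3, 9 and 4 counts in CO and 14, 18 and 10 counts in HS, or 0.206, 0.785 and 0.324 CPM against 1.29, 1.61 and 0.944 CPM. All HS libraries lay above all CO libraries, by a log2 fold change of 1.58 ± 0.52, with an unadjusted p of 0.013 and an adjusted p of 0.17 by edgeR (0.06 to 0.54 over the alternatives). The other beta chain H2-DMb1 measured 1.71, 1.92 and 2.35 CPM in CO and 2.03, 2.96 and 2.46 CPM in HS, and the alpha chain H2-DMa 14.8, 14.1 and 10.4 CPM in CO and 11.4, 14.1 and 14.6 CPM in HS. Both overlapped. Ciita had 5, 3 and 2 counts in CO and 0, 1 and 1 counts in HS, below the filter of the brain test, and the HS to CO ratio was 0.236 with an exact 95% counting interval of 0.0251 to 1.11.

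A pair of H2-Q genes, chosen after their values were seen, varied between brain libraries without regard to group. H2-Q1 had 48 counts (4.30 CPM) in HS 2 and between 5 and 15 counts in the other brain libraries. H2-Q2 had 58 counts (5.36 CPM) in HS 1 and 31 (2.71 CPM) in CO 2, against 9 to 24 in the rest.

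**Figure D5:**
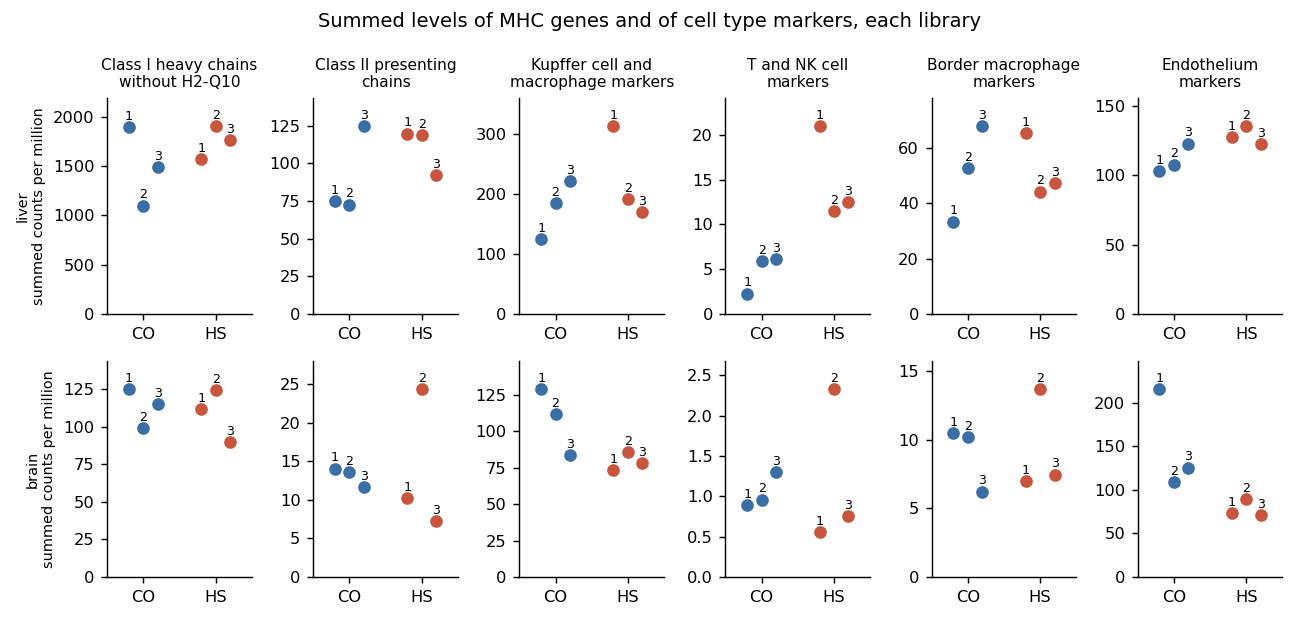
Summed normalised CPM of class I heavy chains without H2-Q10, of class II presenting chains, and of 4 marker lists in each liver (top) and brain (bottom) library, CO in blue, HS in red, numbered by replicate. The MHC sums overlap between groups in both tissues, while T and NK cell markers in liver and endothelium markers in brain do not.

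Whether the heat effect differed between the tissues was tested directly, as the liver change minus the brain change. Of 32 members, 0 passed an adjusted p-value under 0.05 by edgeR, against 0.00632% of all 15824 genes, and 0 of the 17 to which DESeq2 gave an adjusted p-value passed it. At an unadjusted p under 0.05, 1 member was higher in the liver direction (3.73% of all genes) and 0 in the brain direction (5.91% of all genes). That member was Ciita, with a difference of 2.42 ± 0.83 on the log2 scale and an adjusted p of 0.52, which rests on 2 counts in all over the HS brain libraries. For Cd74 the difference was 0.61 ± 0.52 (adjusted p = 0.69), for Tap2 0.39 ± 0.39 (adjusted p = 0.73), for H2-D1 0.42 ± 0.24 (adjusted p = 0.57) and for H2-DMb2 -1.03 ± 0.62 (adjusted p = 0.58).

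Of the other genes of the pathway, edgeR called 0 in either tissue at an adjusted p-value under 0.05, while DESeq2 called 2 in liver, Pdia3 and Irf7, and 1 in brain, Calr. Of 10 genes for class I peptide supply and loading, 1 was higher and 1 lower at an unadjusted p under 0.05 in liver. These were the immunoproteasome subunit Psmb8, at 28.9, 30.7 and 32.8 CPM in CO and 46.2, 43.7 and 40.1 CPM in HS, and the chaperone Pdia3, at 529, 730.3 and 724 CPM in CO and 405, 364 and 425 CPM in HS. Neither overlapped, with log2 fold changes of 0.49 ± 0.16 (adjusted p = 0.65) and -0.73 ± 0.20 (adjusted p = 0.47 by edgeR). The DESeq2 adjusted p of Pdia3 was 0.025, with a range of 2.9e-05 to 1 over the alternatives. In brain 2 were higher and 1 lower: the proteasome activator genes Psme1 (log2 fold change 0.38 ± 0.14) and Psme2 (0.42 ± 0.16), and the chaperone Calr, at 415, 349 and 329.7 CPM in CO and 248, 233 and 257 CPM in HS (-0.57 ± 0.13, adjusted p = 0.17 by edgeR, 0.0066 by DESeq2, and 0.0066 to 0.54 over the alternatives).

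Of 7 class II processing genes, 1 was higher in liver, Cd83 (0.90 ± 0.40), and 1 in brain, Marchf1 (0.39 ± 0.15), at an unadjusted p under 0.05. Of 12 promoter factor genes, 0 reached that level in liver, and in brain Nfyb, an NF-Y subunit, was higher (0.31 ± 0.11) and Irf2 lower (-0.33 ± 0.14). Among MHC-like genes outside the H2 names, Cd1d1, which presents lipids, was the 1 of 4 tested in brain at that level (1.32 ± 0.49), and 0 of 5 were in liver. The interferon-induced list held 6 of 17 genes higher in liver and 2 of 15 in brain, with 0 lower in both. Its leading genes were Irf7 in liver, at 23.045, 21.2 and 18.5 CPM in CO and 56.5, 39.9 and 41.9 CPM in HS (1.14 ± 0.19, adjusted p = 0.13 by edgeR, 0.00031 by DESeq2, and 1e-05 to 0.88 over the alternatives), and Ifit1 in brain (1.13 ± 0.30, adjusted p = 0.17). The background shares for these counts are those given above for each tissue.

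Beside the brain class I values, endothelium markers summed to 216, 109 and 126 CPM in CO and 73.2, 89.5 and 71.2 CPM in HS, and choroid plexus markers to 87.5, 89.6 and 162 CPM in CO and 56.5, 71.6 and 32.7 CPM in HS, without overlap in either list. At an unadjusted p under 0.05 by edgeR, 6 of 6 tested endothelium markers (median log2 fold change -1.04) and 3 of 6 choroid plexus markers (median -1.25) were lower, against 10.0% of all genes. Among them were Flt1 (-1.06 ± 0.25, adjusted p = 0.17 by edgeR, 0.0066 by DESeq2, and 0.0066 to 0.54 over the alternatives) and Kl (-1.42 ± 0.30, adjusted p = 0.17 by edgeR, 0.0013 by DESeq2, and 0.0013 to 0.54 over the alternatives). No gene of these lists was at 0 in all brain libraries. Their part in the lower Tap2 values was not tested.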

How the data were processed

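RNA of brain and liver was sequenced from 3 CO and 3 HS mice per tissue. The authors deposited raw counts per gene symbol for the 12 libraries. Their text describes 2 routes to such counts: Trimmomatic, HISAT2 on mm10 and featureCounts, with Subread 2.0.1 named in the submitters' processing notes, or Tophat2 and HTSeq. The annotation, the use of strand and the treatment of shared reads are not given in the sources used here. Deposited tables of log2 fold changes and p-values hold the authors' own comparisons and were not used.

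Members and gene lists were chosen with earlier results of these data known. Counts were tested in R 4.3.3 with edgeR 4.0.16 (quasi-likelihood, robust, TMM, minimum count 10, minimum total 15, Benjamini-Hochberg adjustment over all genes tested) within each tissue, and over all 12 libraries for the tissue and difference contrasts. Each standard error divides the size of the log2 fold change by the root of its F statistic. CPM are TMM-normalised within a tissue. RPKM use the longest protein-coding transcript of GENCODE M21, or the longest transcript of a gene with no coding one, such as the pseudogenes H2-T-ps and H2-K2. Values are given in every library for 14 genes that define each step, for members past the threshold and for the 3 further members with the smallest unadjusted p per tissue, and list genes by smallest unadjusted p, at most 3 a list. H2-Q1, H2-Q2 and the brain values of Ciita were singled out after their values were seen. So were the markers Marco, Itgax, Ccl5, Mrc1, Pf4, Ms4a7, Pax5, Cd79a, Cd79b, Csf1r, Cd68, Adgre1, Flt3, Zbtb46, Cd209a, P2ry12, Gpr34, Flt1 and Kl. Alternatives were other normalisations, DESeq2 1.42.0, other filters, all libraries in 1 fit, the replicate number as a block, the suffix "2nd" of 3 liver columns as a term, and leaving libraries out. That suffix, whose meaning is not given, stood on liver CO 2, HS 1 and HS 3, so it was partly mixed with treatment. With 3 mice against 3, an exact permutation test of a single value cannot go below 0.1. Library totals were 10466198 to 15609040 counts, and the procedure was tested on simulated data. The liver and brain libraries of a group may share mice, which the labels do not say. Deviations from the group mean correlated at 0.28, 0.26 and 0.10 between same-numbered control liver and brain libraries. The heat stress ones correlated at 0.04, -0.14 and 0.01. Without the values for unlike numbers, these do not settle whether the numbers pair the tissues. The tissue and difference contrasts were fitted without a pairing and so treat the libraries as independent, with the replicate block as an alternative. Replicates of a group differed beyond counting noise in every pair (chi-square per degree of freedom 15.9 to 120.2), so spread between samples limits the precision beyond what the totals give. Nothing in the labels says how separately the mice of a group were kept, so p-values measure the spread between these samples.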

Additional observations from a re-analysis of the deposited data

How the results depend on the processing

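No member passed an adjusted p-value under 0.05 in liver, in brain or for the difference between tissues under any alternative run, though DESeq2 gave an adjusted p-value for only 4 of the 28 brain members and 17 of the 32 in the difference. With 3 libraries a group, small shifts of low genes could not be told from replicate spread. The number of liver members higher at an unadjusted p under 0.05, 2 as reported, was 1 with DESeq2 size factors, with DESeq2, with all libraries in 1 fit and without both muscle libraries, 5 with the column suffix as a term, 0 with the replicate block, and 0 to 6 when a library was left out. Over all genes the same number was 365 as reported, 318 with DESeq2 size factors and 285 with DESeq2. It was 525 with all libraries in 1 fit, 715 without both muscle libraries, 529 with the column suffix and 192 with the replicate block. Leaving out a library gave 226 to 890. In brain, the stricter filter left 10 members with a log2 fold change above 0 and 0 higher at an unadjusted p under 0.05, because fewer low genes were tested, and DESeq2 on all libraries left 0 lower. Leaving out a brain library gave 12 to 21 members above 0, 0 to 3 higher and 0 to 2 lower. Over all genes, leaving out a brain library gave 729 to 2042 higher and 886 to 1985 lower. The stricter filter gave 1408 genes higher, and DESeq2 on all libraries gave 953 lower. In control liver against control brain the stricter filter left 1 member lower, and leaving out a library gave 26 to 28 calls, 24 to 25 higher and 2 to 3 lower. Over all genes the stricter filter called 6235 lower, and leaving out a library gave 5602 to 5838 higher and 6735 to 7318 lower. Replicate numbers did not pair the CO with the HS samples: same-numbered CO and HS libraries correlated at -0.63, -0.55 and -0.09 in liver and -0.30, 0.23 and -0.20 in brain. With the replicate block H2-Aa in brain turned to -0.0789, and no call by adjusted p changed in the heat comparisons. For control liver against control brain the replicate block left all 28 calls in the same direction.

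Log2 fold changes that turned sign belonged to genes that no setting called. In liver, Tap2 was -0.00128 with DESeq2, -0.0201 with all libraries in 1 fit and -0.21 to 0.35 over the libraries left out, H2-Ab1 was -0.14 and H2-DMb1 -0.0561 without both muscle libraries, and leaving out a library gave -0.0331 to 0.38 for H2-Ab1, -0.11 to 0.44 for H2-DMb1 and -0.00696 to 0.47 for H2-K1. In brain, leaving out a library gave -0.76 to 0.56 for H2-Aa, -0.70 to 0.25 for H2-Ab1, -0.75 to 0.26 for Cd74, -0.30 to 0.31 for H2-Eb1, -0.12 to 0.12 for H2-DMa, -0.32 to 0.42 for Nlrc5 and -0.0395 to 0.31 for B2m. Other members turned sign as well when a library was left out. They included H2-M3 (-0.18 to 0.42), H2-Ob (-0.20 to 0.60), H2-Q1, H2-Q10 and H2-K2 in liver. In brain they included H2-Q4, H2-Q6, H2-T10, H2-T22, H2-T24, H2-M3, H2-Bl and H2-Ob. The cause was not tested.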
